A study of Homo sapiens with 12 samples.

Results

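In HepG2 spheroids, TACC1, TSPAN7, GALNT13, RHOBTB1, MCUR1, CCDC92, DSTN and GTF2H3 had higher mean expression in both HIF knockdowns than in wild type. They are 8 of the 18404 genes measured and not the only ones with higher means in both. All 8 were found, each with a single probe set (a set of array probes for 1 gene) that named no other gene. They were chosen by those means, that is on the array values of all 3 groups, so their differences from wild type are given as a description and without a test. HepG2 is an established human liver tumour cell line. Spheroids, 10 days old and grown in stirred flasks, were profiled in 3 groups of 4 arrays, which were wild type spheroids and those with a knockdown of HIF-1α or of HIF-2α, with 4 spheroid experiments per genotype according to the series' design. Per the labels' protocols the RNA was amplified before labelling, from microdissected material of 250 cells. How the knockdowns were made, and whether wild type cells carried a control construct, is not given in the sources used here. Both knockdown groups were set against the same 4 wild type arrays, and an effect of making a knockdown line cannot be told apart from one of lower HIF-α. Nor can fewer cells of a type be told apart from less RNA per cell in such bulk samples.

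The hypoxia-inducible factors are transcription factors whose α subunits are degraded when oxygen is plentiful: HIF1A is the gene of HIF-1α and EPAS1 that of HIF-2α. Each α subunit pairs with ARNT and binds hypoxia response elements in DNA. They are best known as activators: in liver cells they raise genes of glucose use, iron handling and blood vessel growth, while genes that are higher when they are reduced are less well characterised. The genes described here do not form a pathway. TACC1 (a coiled-coil protein of microtubules and the centrosome), DSTN (destrin, which severs and depolymerises actin filaments), RHOBTB1 (which binds the ubiquitin ligase scaffold CUL3) and CCDC92 (a coiled-coil protein of centrioles) belong to or act near the cytoskeleton. TSPAN7 is a tetraspanin, a membrane protein that organises other proteins on the cell surface, and GALNT13 adds the first sugar in mucin-type O-glycosylation in the Golgi apparatus. MCUR1 sits in the inner mitochondrial membrane and regulates the calcium uniporter, and GTF2H3 is a core subunit of TFIIH, the complex that opens DNA for transcription and nucleotide excision repair.

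The stretches of 250 bases before an annotated start site are shown for the genes whose windows hold the core letters of a hypoxia response element there, because the genes were chosen in knockdowns of the factors that read it; GTF2H3 is shown as a window without them. Sequences are from RefSeq, build GRCh38.p14, printed 5′ to 3′ on the strand of the gene, and capitals mark ACGTG or GCGTG on either strand.
DSTN, chr20:17569825-17570074, plus strand: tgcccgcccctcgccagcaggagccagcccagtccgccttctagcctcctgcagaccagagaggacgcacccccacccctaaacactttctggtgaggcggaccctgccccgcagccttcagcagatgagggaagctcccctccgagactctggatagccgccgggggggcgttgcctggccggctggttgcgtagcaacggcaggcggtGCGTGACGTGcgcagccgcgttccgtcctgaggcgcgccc
RHOBTB1, chr10:61000998-61001247, minus strand: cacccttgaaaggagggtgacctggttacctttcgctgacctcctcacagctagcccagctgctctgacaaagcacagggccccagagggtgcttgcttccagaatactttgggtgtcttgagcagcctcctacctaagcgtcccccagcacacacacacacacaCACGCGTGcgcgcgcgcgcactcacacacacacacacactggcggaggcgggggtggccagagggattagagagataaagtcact
RHOBTB1, chr10:60944727-60944976, minus strand: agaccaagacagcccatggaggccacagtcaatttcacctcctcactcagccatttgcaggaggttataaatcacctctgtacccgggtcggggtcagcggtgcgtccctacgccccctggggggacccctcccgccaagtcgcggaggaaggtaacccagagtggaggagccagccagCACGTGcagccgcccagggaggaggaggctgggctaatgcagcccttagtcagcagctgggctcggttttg
GALNT13, chr2:153477651-153477900, plus strand: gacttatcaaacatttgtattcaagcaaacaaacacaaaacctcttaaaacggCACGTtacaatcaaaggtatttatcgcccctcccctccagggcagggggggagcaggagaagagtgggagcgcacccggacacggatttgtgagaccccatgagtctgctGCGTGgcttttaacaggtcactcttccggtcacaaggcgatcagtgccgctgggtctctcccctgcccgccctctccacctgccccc
GTF2H3, chr12:123633579-123633828, plus strand: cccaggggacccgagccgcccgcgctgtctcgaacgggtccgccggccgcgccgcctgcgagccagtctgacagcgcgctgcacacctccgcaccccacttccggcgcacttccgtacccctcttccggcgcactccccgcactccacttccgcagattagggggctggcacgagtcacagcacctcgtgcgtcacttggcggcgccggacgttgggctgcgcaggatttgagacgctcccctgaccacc

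Of the 8 genes, 6 have entries in that promoter table, with 11 windows between them, since RHOBTB1, GALNT13 and CCDC92 have several start sites. TACC1 and TSPAN7 have none. In DSTN, GCGTG and ACGTG follow each other directly, with first bases 40 and 35 bases before the start. The second RHOBTB1 window shown holds CACGTG, 71 bases before the start; this palindrome reads as ACGTG on both strands and is also an E-box, the site of other basic helix-loop-helix factors. In the first RHOBTB1 window shown, GCGTG on both strands stands in a run of CA and CG repeats, and 1 ACGTG lies after the start. The GALNT13 window has CACGT, which is ACGTG on the other strand, at 197 bases and GCGTG at 87 bases before the start. MCUR1 has a single GCGTG, which lies after the start and is not shown, and no window of CCDC92 or GTF2H3 holds either motif. Over the full windows of 300 bases, 5 of 11 (45.5%) held ACGTG or GCGTG, against 55.1% of the 20100 windows of all measured genes. For ACGTG alone the shares were 36.4% and 23.2%, and for GCGTG 36.4% and 43.3%. A share of 11 windows from 6 genes is a description, and such short motifs are common in promoters rich in G and C.

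The labels were checked against the targeted transcripts first. HIF1A lay between 9.25 and 9.64 in HIF-1α knockdown and between 10.62 and 10.79 in wild type, so that 42.5% of the wild type signal remained (limma adjusted p = 0.00241). EPAS1 lay between 9.67 and 10.02 in HIF-2α knockdown and between 10.83 and 11.26 in wild type, with 46.0% remaining (limma adjusted p = 0.000206). In the other knockdown each overlapped with wild type and was not called. There EPAS1 differed by -0.03 and HIF1A by 0.24, with the highest HIF1A of all arrays on HIF-2α knockdown replicate 2 (11.46). All values are log2 array values as deposited, so a difference of 1 is a doubling. Since probe sets differ in brightness, levels of different genes are not compared beyond telling dim markers from bright ones. The 12 measured hepatocyte markers had wild type means from 8.45 for FOXA2 to 13.94 for APOB. On the deposited values none was called in any comparison (limma), while 7, 1 and 5 had an unadjusted p below 0.05. Their median difference from wild type was -0.37 in HIF-1α and -0.15 in HIF-2α knockdown, with 1 and 0 of the 12 higher. After quantile and cyclic loess normalization TF was called lower in HIF-1α knockdown than in wild type. ALB was called higher in HIF-2α than in HIF-1α knockdown under both. Of the markers of other cell types, PTPRC, CD3E, DCN and VIM had wild type means between 6.52 and 6.84. This is near the low end of the scale, where a gene that is off cannot be told from a weak one. PDGFRB, at 7.60, lay above the medians of the wild type arrays (7.34 to 7.39). Other markers of these lists were brighter, with wild type means of 9.93 for CD68, 9.09 for ACTA2 and 8.06 for PECAM1. LYZ had group means from 13.05 to 13.44. The array means of the fibroblast and stellate, endothelial, leukocyte and neuronal lists overlapped between wild type and each knockdown (all arrays: 7.19 to 7.36, 7.10 to 7.23, 8.32 to 8.55 and 6.77 to 6.95). Between the knockdowns the endothelial means did not overlap (7.22 to 7.23 in HIF-1α and 7.10 to 7.16 in HIF-2α knockdown), while those of the other lists did. Of the 27 genes of all these lists limma called PDGFRB on the deposited values, lower in HIF-2α knockdown than in both other groups (-0.40 and -0.35). It also called CD14, lower in HIF-2α than in HIF-1α knockdown (-0.39). After quantile normalization PECAM1 and LYZ were called lower in HIF-2α than in HIF-1α knockdown as well. LYZ was called lower in HIF-2α knockdown than in wild type after cyclic loess normalization. Under both of these normalizations CD14 was called higher in HIF-1α knockdown than in wild type. The highest array floors were those of replicates 1 and 2 of wild type and replicate 4 of HIF-2α knockdown, with the 0.1 percentile at 6.33 to 6.35 against 6.11 to 6.23 elsewhere. The same arrays had the narrowest interquartile ranges, 1.70 to 1.84 against 1.94 to 2.04 elsewhere.

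TACC1 had the largest rise of all 18404 genes in HIF-1α knockdown. It read 8.12, 7.95, 8.46 and 8.24 on the wild type arrays, 9.41, 9.37, 9.46 and 9.76 in HIF-1α knockdown, and 8.94, 8.79, 8.97 and 8.67 in HIF-2α knockdown. The 3 groups did not overlap, and every HIF-2α knockdown array lay between the other groups. TACC1 was 2.47-fold higher in HIF-1α knockdown than in wild type (log2 difference 1.30, SE 0.11) and 1.57-fold higher in HIF-2α knockdown (0.65, SE 0.11). The comparison of the knockdowns with each other was not used to pick the genes, and there TACC1 was lower in HIF-2α than in HIF-1α knockdown by 0.66 on the log2 scale (SE 0.11, 95% interval -0.90 to -0.42). This difference passed the test over all genes (limma adjusted p = 0.00639; two-sided exact permutation p = 0.0286, the smallest that 4 against 4 arrays can give). It was called in all 24 settings of the analysis, with adjusted p from 0.000388 to 0.0333. By the same test 2.77% of all genes were called between the knockdowns, and TACC1 was the 1 of the 8 that was. Arrays of the knockdowns did not overlap for TACC1 and RHOBTB1, 2 of the 8, beside 9.08% of all genes.

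**Figure D1:**
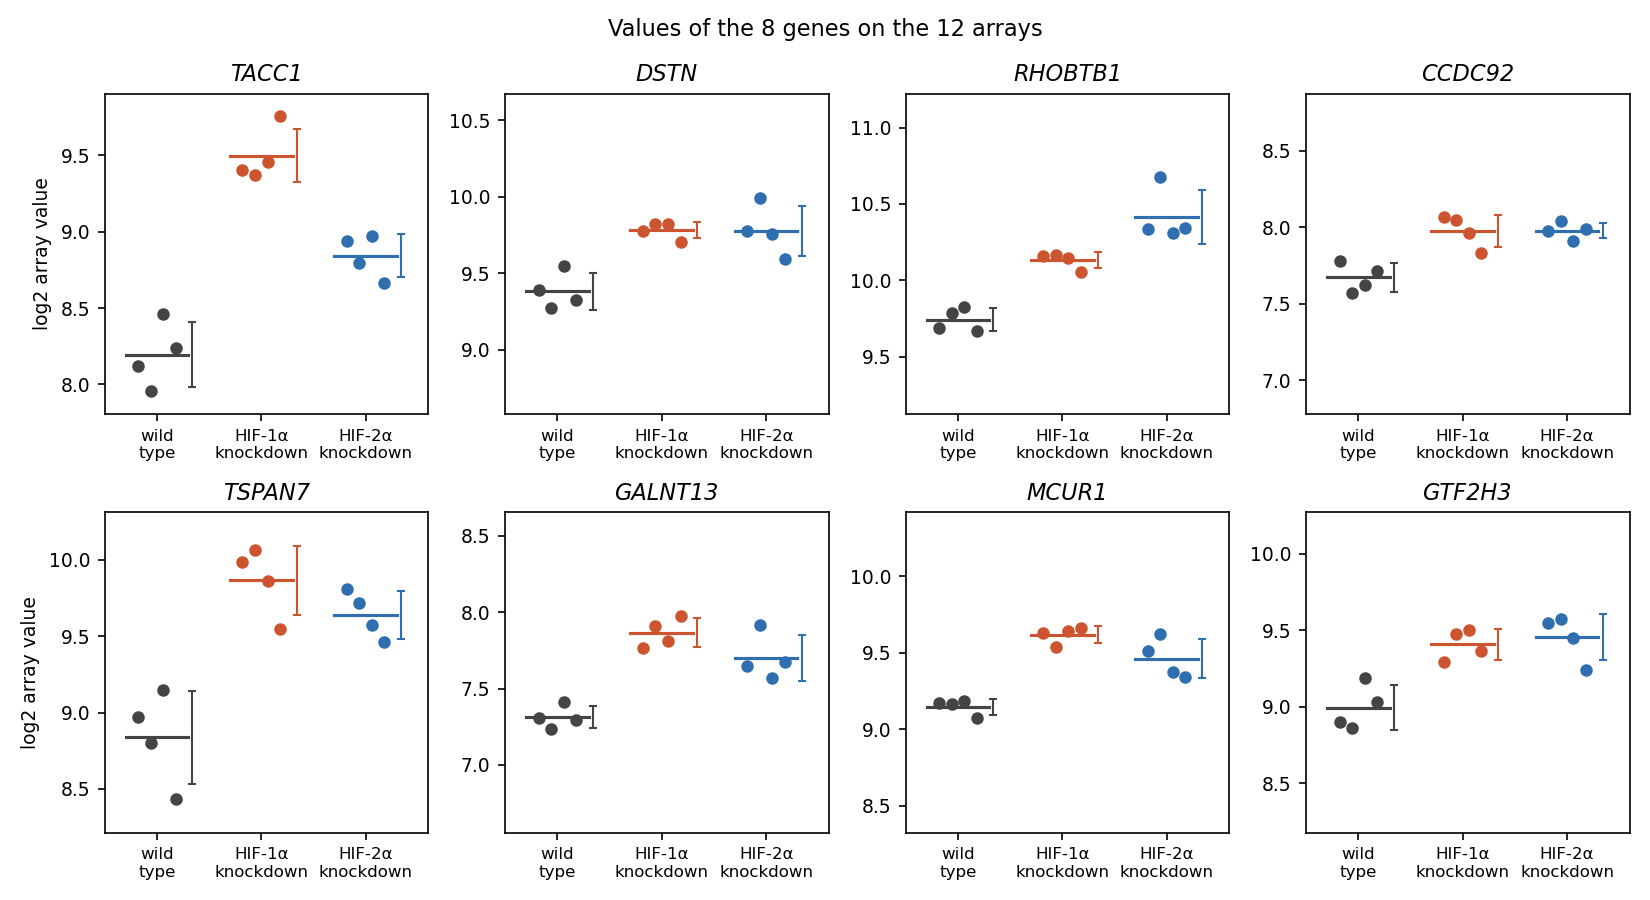
Log2 array values (vertical axis) of the 8 genes in the 3 groups; points are the 4 arrays of a group in order of replicate number, horizontal lines are means and bars are 1 SD. Every panel spans the same range of log2 units and none starts at 0. All points of both knockdowns lie above the highest wild type point in each panel, and in TACC1 the HIF-1α knockdown points lie above those of HIF-2α knockdown.

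RHOBTB1 showed the opposite order of the knockdowns. Its wild type arrays read 9.69, 9.78, 9.82 and 9.67, those of HIF-1α knockdown 10.16, 10.17, 10.14 and 10.05, and those of HIF-2α knockdown 10.33, 10.68, 10.31 and 10.34. The groups again did not overlap, and HIF-2α knockdown replicate 2 stood above the other arrays of its group. RHOBTB1 was 1.31-fold above wild type in HIF-1α knockdown (0.39, SE 0.08) and 1.60-fold above it in HIF-2α knockdown (0.67, SE 0.08), where it ranked 15th among the rises of all genes. Between the knockdowns the difference was 0.29 (SE 0.08, 95% interval 0.12 to 0.45). It did not pass the test over all genes (limma adjusted p = 0.0721, exact permutation p = 0.0286). It passed after quantile normalization (adjusted p = 0.0222), after cyclic loess normalization (0.0243) and with array weights (0.0317), while the highest adjusted p over the settings was 0.195. Without HIF-2α knockdown replicate 2 the difference was 0.20.

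DSTN, the third gene of this cytoskeletal group, had nearly equal means in the knockdowns. Wild type arrays read 9.39, 9.27, 9.55 and 9.32, HIF-1α knockdown arrays 9.78, 9.82, 9.82 and 9.71, and HIF-2α knockdown arrays 9.77, 9.99, 9.76 and 9.59. The lowest HIF-2α knockdown array, replicate 4, lay 0.04 above the highest wild type array, replicate 3, so the groups were separate by a narrow margin. The rise was 1.32-fold in both knockdowns (0.40 in each, SE 0.08), and the difference between them had a 95% interval from -0.18 to 0.17 (limma adjusted p = 0.996). CCDC92 also had nearly equal means in the knockdowns. Its arrays read 7.78, 7.57, 7.62 and 7.71 on the wild type arrays, 8.07, 8.05, 7.96 and 7.83 in HIF-1α knockdown, and 7.98, 8.04, 7.91 and 7.99 in HIF-2α knockdown. Its lowest HIF-1α knockdown array exceeded the highest wild type array by 0.05. CCDC92 was 1.24-fold higher in each knockdown (0.31 in both, SE 0.06), the smallest rise of the 8 genes in either comparison, and its difference between knockdowns lay within -0.14 to 0.14 (adjusted p = 0.998).

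TSPAN7 had the widest spread between arrays of the 8 genes in the wild type group and among HIF-1α knockdown arrays. Its wild type arrays read 8.97, 8.80, 9.15 and 8.43, the HIF-1α knockdown arrays 9.98, 10.07, 9.86 and 9.55, and the HIF-2α knockdown arrays 9.81, 9.71, 9.57 and 9.46. Wild type replicate 4 was the lowest of all 12 arrays, and the lowest array of either knockdown lay at least 0.31 above the highest of wild type. TSPAN7 was 2.04-fold higher in HIF-1α knockdown (1.03, SE 0.14) and 1.74-fold higher in HIF-2α knockdown (0.80, SE 0.14), 6th and 8th among the rises of all genes. The knockdowns overlapped, with a difference of -0.23 (SE 0.14, 95% interval -0.53 to 0.08, limma adjusted p = 0.586).

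GALNT13 read 7.31, 7.24, 7.41 and 7.30 on the wild type arrays, 7.77, 7.91, 7.81 and 7.98 in HIF-1α knockdown, and 7.65, 7.92, 7.57 and 7.68 in HIF-2α knockdown. Its wild type arrays lay below all others, and the knockdowns overlapped because HIF-2α knockdown replicate 2 was high. The rises were 1.47-fold (0.55, SE 0.08) and 1.31-fold (0.39, SE 0.08), and HIF-2α knockdown was lower than HIF-1α knockdown by 0.16 on the log2 scale (SE 0.08, 95% interval -0.33 to 0.00, limma adjusted p = 0.372). With array weights, which give HIF-2α knockdown replicate 2 the lowest weight, that difference was -0.23 and was called (adjusted p = 0.0357), against adjusted p of up to 0.643 in the other settings.

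MCUR1 read 9.17, 9.17, 9.18 and 9.07 on the wild type arrays, 9.63, 9.54, 9.64 and 9.66 in HIF-1α knockdown, and 9.51, 9.62, 9.37 and 9.34 in HIF-2α knockdown. It was 1.39-fold higher in HIF-1α knockdown (0.47, SE 0.06) and 1.24-fold higher in HIF-2α knockdown (0.32, SE 0.06). Only HIF-2α knockdown replicate 2 reached into the range of HIF-1α knockdown, and the difference of -0.16 between the knockdowns (SE 0.06, 95% interval -0.29 to -0.02) had an unadjusted p of 0.031 and did not pass after adjustment (limma adjusted p = 0.292, exact permutation p = 0.0571).

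GTF2H3 read 8.90, 8.86, 9.19 and 9.03 on the wild type arrays, 9.29, 9.48, 9.50 and 9.36 in HIF-1α knockdown, and 9.55, 9.57, 9.45 and 9.24 in HIF-2α knockdown. Replicate 4 of HIF-2α knockdown lay 0.06 above wild type replicate 3, the closest approach of the groups. The rise was 1.33-fold (0.41, SE 0.09) and 1.38-fold (0.46, SE 0.09), with 0.04 between the knockdowns (95% interval -0.14 to 0.23, limma adjusted p = 0.912).

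**Figure D2:**
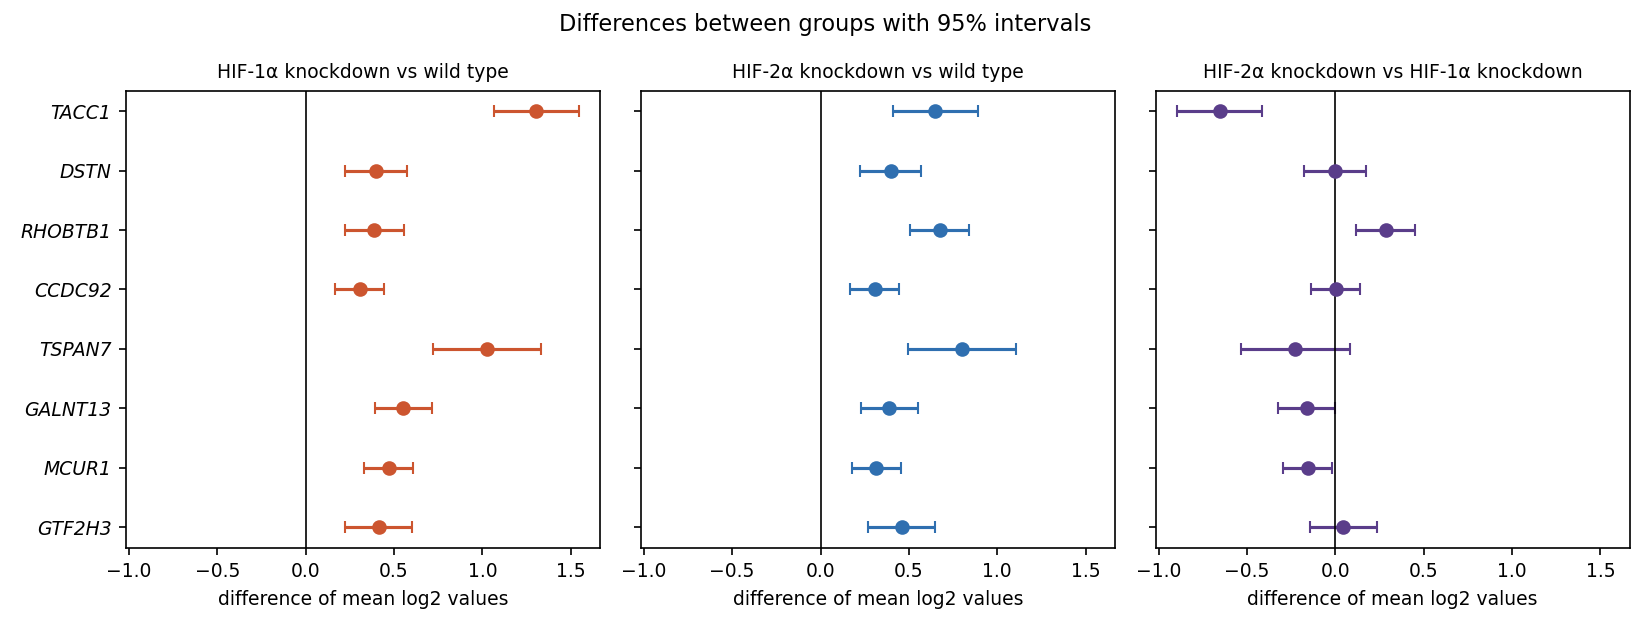
Differences of mean log2 values (horizontal axis) for the 8 genes in the 3 comparisons, with 95% intervals from the fit over all genes; the second group named is subtracted from the first. In the right panel the intervals of TACC1, RHOBTB1 and MCUR1 leave out 0, and of these TACC1 alone passed after adjustment over all genes on the deposited values.

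Read together, the 8 genes fell into different orders. TACC1, TSPAN7, GALNT13 and MCUR1 had their highest mean in HIF-1α knockdown, RHOBTB1 and GTF2H3 in HIF-2α knockdown, and DSTN and CCDC92 had means within 0.01 of each other. The difference between the knockdowns passed the test for TACC1 alone. The median difference from wild type over the 8 genes was 0.44 in HIF-1α knockdown and 0.43 in HIF-2α knockdown, beside 0.00 and -0.01 over all genes. All 8 lay among the genes called higher by limma (adjusted p below 0.05) in each knockdown, beside 0.815% of all genes called higher in HIF-1α knockdown and 0.478% in HIF-2α knockdown (0.962% and 0.788% in either direction). In both at once 11 genes (0.0598%) were called higher. Since the choice of the genes rests on these comparisons, nothing is read from those counts. The other 3 were SULT1C2, a sulfotransferase (0.79 and 0.94), ZBTB8OS (0.34 and 0.41) and SANBR (0.32 and 0.29). Every array of both knockdowns lay above every wild type array for all 8 genes, as for 184 genes in all (1.00%; 5.73% in HIF-1α knockdown and 3.40% in HIF-2α knockdown taken singly).

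How many of the 8 were called in both knockdowns depended on single arrays. These counts too are a description and no test, since the genes were chosen on these comparisons. Without wild type replicate 4, limma called 1 gene higher in both, and it was not among the 8. Without wild type replicate 1 or 2, 1 of the 8 was called, of 2 genes in all. Without wild type replicate 3, 7 of the 8 were called and the genes called higher in both rose to 40. Without a HIF-1α knockdown array 2 to 4 of the 8 were called (3 to 7 genes in all), without HIF-2α knockdown replicate 1 or 2 it was 1 and 2 (of 3 and 7 genes), and without replicate 3 or 4 it was 5 and 6 (of 10 and 12 genes). Wild type replicate 3 was the highest of wild type for 7 of the 8 genes. It also had the highest mean of the ribosomal protein genes (12.64 against 12.11 to 12.39 on the other wild type arrays). Those means lay between 11.83 and 12.13 in HIF-1α knockdown and between 11.97 and 12.52 in HIF-2α knockdown. Of these 20 genes limma called RPL11 on the deposited values. It was lower in HIF-1α knockdown than in wild type (-0.78) and than in HIF-2α knockdown. Against wild type this call was lost after median centring and with a common interquartile range, and between the knockdowns with the latter. RPL27 was called lower in HIF-1α knockdown than in wild type after quantile normalization. Of the 20 genes, 1 was higher in HIF-1α knockdown than in wild type (median -0.43, 13 with an unadjusted limma p below 0.05). In HIF-2α knockdown 4 were higher than in wild type (median -0.09, 0 unadjusted). Between the knockdowns all 20 were higher in HIF-2α knockdown (median 0.35, 12 unadjusted). The hepatocyte marker means of wild type, between 12.20 and 12.66, lay above those of HIF-1α knockdown, between 11.92 and 12.19, and overlapped with HIF-2α knockdown (11.93 to 12.49). The part of these array differences in the rises of the 8 genes was not tested. Within HIF-2α knockdown, replicate 2 was the highest array for 6 of the 8 genes and replicate 4, 1 of the arrays with a raised floor, the lowest for 5. A fit on the 9 arrays with a lower floor kept only replicates 3 and 4 of wild type, which limits its calls. In it all 8 differences stayed above 0 in both comparisons, with medians of 0.44 and 0.41, and limma called 1 gene higher in both, which was not among the 8.

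The sizes of the rises also depended on how the arrays were scaled. Under quantile normalization, median centring, median centring with a common interquartile range, and cyclic loess normalization, every 1 of the 8 genes stayed above wild type in both knockdowns. For TACC1 the difference ran from 1.22 to 1.30 in HIF-1α knockdown and from 0.60 to 0.65 in HIF-2α knockdown, so it hardly moved. For RHOBTB1 in HIF-1α knockdown it ran from 0.21 to 0.39, for DSTN from 0.25 to 0.40 and for MCUR1 from 0.33 to 0.47, with the smallest value under the common interquartile range each time. GALNT13 ranged only from 0.53 to 0.55 there. The number of the 8 whose arrays stayed clear of wild type in both knockdowns was 7 after quantile normalization, median centring and cyclic loess, where CCDC92 overlapped, and 4 with a common interquartile range, where RHOBTB1, MCUR1 and DSTN overlapped as well; the share of all genes that did so was 0.685%, 0.603%, 0.826% and 0.391%. Called in both, in the order of quantile normalization, median centring, cyclic loess and common interquartile range, were 6, 2, 5 and 1 of the 8, beside 0.0815%, 0.0163%, 0.0869% and 0.0163% of all genes (15, 3, 16 and 3). TACC1 was the 1 gene of the 8 that was called in both under all 4. Since the choice of the genes rests on these comparisons, the counts are a description and no test.

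**Figure D3:**
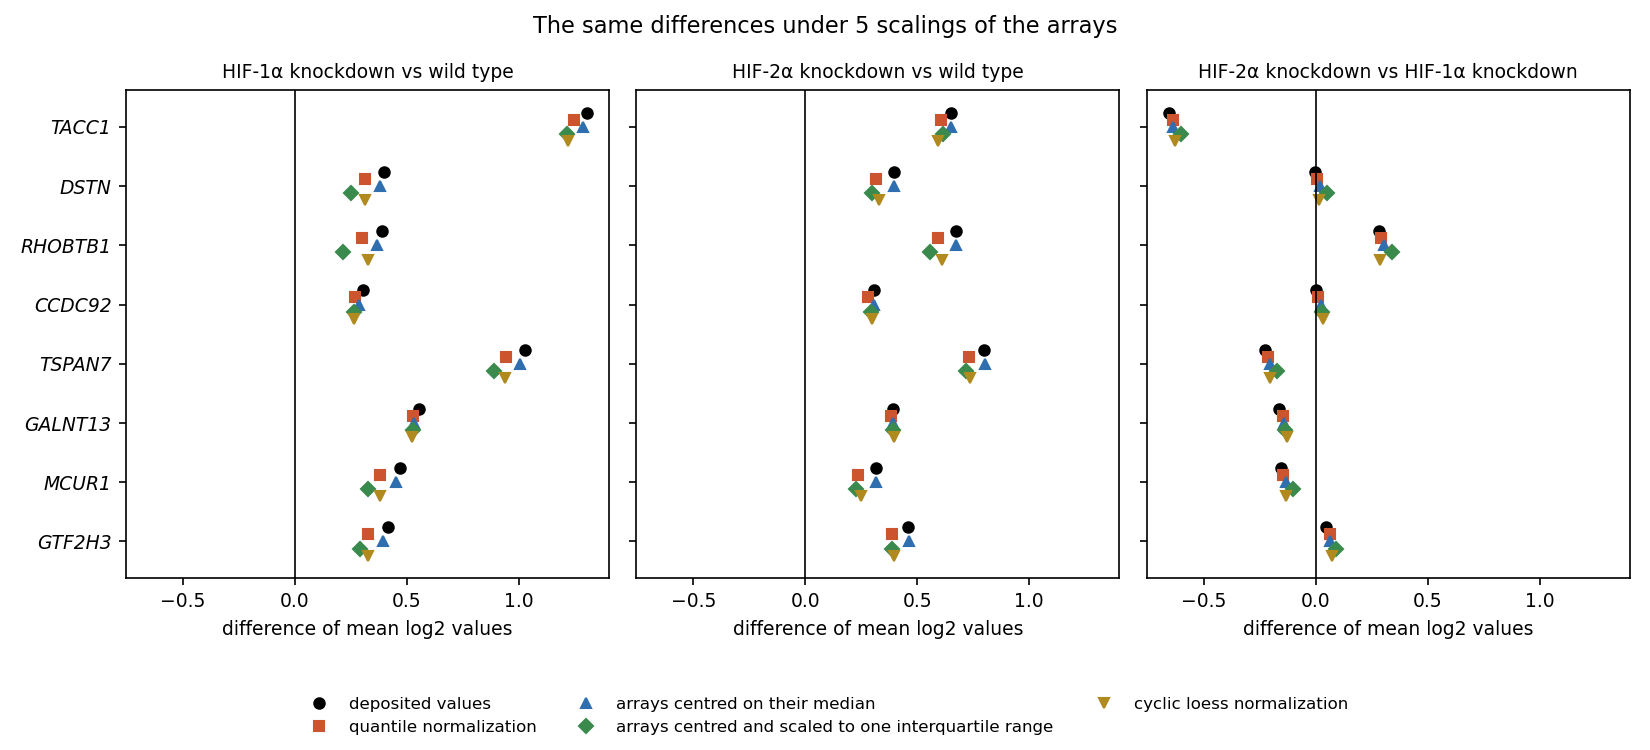
Differences of mean log2 values (horizontal axis) of the 8 genes in the 3 comparisons on the deposited values and after 4 other scalings of the arrays, 1 symbol for each. In the left and middle panels all symbols lie to the right of 0; the common interquartile range gives the smallest rise of RHOBTB1, 0.21, in HIF-1α knockdown.

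Of 103 other measured genes in the 7 family and pathway lists set beside these genes, limma called 0 in HIF-1α knockdown and 0 in HIF-2α knockdown against wild type, while 23 and 13 had an unadjusted p below 0.05. Their medians were 0.01 and -0.02. Between the knockdowns 4 were called, all lower in HIF-2α knockdown (21 unadjusted). Over all genes 0.962% and 0.788% were called against wild type and 2.77% between the knockdowns, where 331 of 509 were lower in HIF-2α knockdown. No share of all genes is given beside the unadjusted counts of this or any other list, so nothing is read from them. Of the 6 measured TACC partners and paralogues none was called in either knockdown against wild type, with medians of -0.0021 and 0.013 (0 and 2 with an unadjusted p below 0.05). TACC3 differed by -0.07 (SE 0.09) and 0.04 (SE 0.09). TACC2 was called between the knockdowns, lower in HIF-2α knockdown by 0.31 on the log2 scale (SE 0.07, limma adjusted p = 0.0253), the direction that TACC1 had there. TACC2 itself differed from wild type by 0.12 and -0.18, neither of them called.

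Among 19 measured genes of actin filament turnover none was called in either knockdown against wild type (7 and 5 with an unadjusted p below 0.05). CFL1 and CFL2, the cofilins that share the function of DSTN, differed by -0.16 and 0.25 in HIF-1α knockdown and by -0.05 and 0.10 in HIF-2α knockdown, none of them called. COTL1, a coactosin-like actin-binding protein, was lower in HIF-2α than in HIF-1α knockdown, with a difference of -0.48 (SE 0.10, limma adjusted p = 0.0228). ACTG1 and TMSB10 were called lower in HIF-2α knockdown than in wild type under quantile and cyclic loess normalization only. On the deposited values ACTG1 differed from wild type by -0.41 in HIF-1α and -0.46 in HIF-2α knockdown, and TMSB10 by -0.37 and -0.50. After quantile normalization ACTG1 and LIMK2 were also called lower in HIF-2α than in HIF-1α knockdown.

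In the list of 8 measured centriole distal appendage genes, set beside CCDC92, no gene was called in any comparison, with medians of 0.03 and 0.11 against wild type and 1, 1 and 0 genes with an unadjusted p below 0.05. Of 31 other tetraspanins none was called against wild type on the deposited values (7 and 3 with an unadjusted p below 0.05). TSPAN6 had the largest difference in HIF-1α knockdown, 0.46 (SE 0.11, limma adjusted p = 0.0714), and was called there under quantile and cyclic loess normalization, as was TSPAN13, which was lower (-0.28 on the deposited values). TSPAN4 was called lower in HIF-2α knockdown than in wild type under quantile normalization, a common interquartile range and cyclic loess (-0.32 on the deposited values). TSPAN4 and CD9 were called between the knockdowns, with differences of -0.56 and -0.69 in HIF-2α against HIF-1α knockdown (limma adjusted p = 0.0142 and 0.0228). TSPAN14 was called lower in this comparison under quantile normalization, a common interquartile range and cyclic loess, and TSPAN6 under quantile normalization and cyclic loess. TSPAN1 and TSPAN13 were called higher in it under cyclic loess. The median of the list was 0.00 in HIF-1α knockdown and -0.06 in HIF-2α knockdown.

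None of 20 other genes of mucin-type O-glycosylation was called in any comparison on the deposited values (5, 0 and 3 with an unadjusted p below 0.05). GALNT1, which catalyses the same step as GALNT13, differed by 0.58 in HIF-1α knockdown (SE 0.15, limma adjusted p = 0.0946), about the size seen for GALNT13 but with a larger error. C1GALT1, which extends that first sugar, differed by 0.40 there (adjusted p = 0.0694) and was called after quantile and cyclic loess normalization. Under both it was also called lower in HIF-2α than in HIF-1α knockdown. The 11 measured uniporter genes beside MCUR1 were not called in any comparison (2, 1 and 2 with an unadjusted p below 0.05). MICU2, a calcium gatekeeper of the uniporter, differed by 0.40 in HIF-1α and 0.34 in HIF-2α knockdown (adjusted p = 0.107 and 0.199), and the pore gene MCU by 0.30 and 0.14. CCDC90B, the paralogue of MCUR1, differed by 0.19 and -0.06. The 8 other TFIIH subunits measured were not called either (1 in each comparison with an unadjusted p below 0.05). GTF2H1 was nearest to GTF2H3, with 0.35 and 0.31 (adjusted p = 0.0848 and 0.145), while GTF2H4 differed by 0.06 and 0.09 and GTF2H5 by 0.02 and 0.14.

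**Figure D4:**
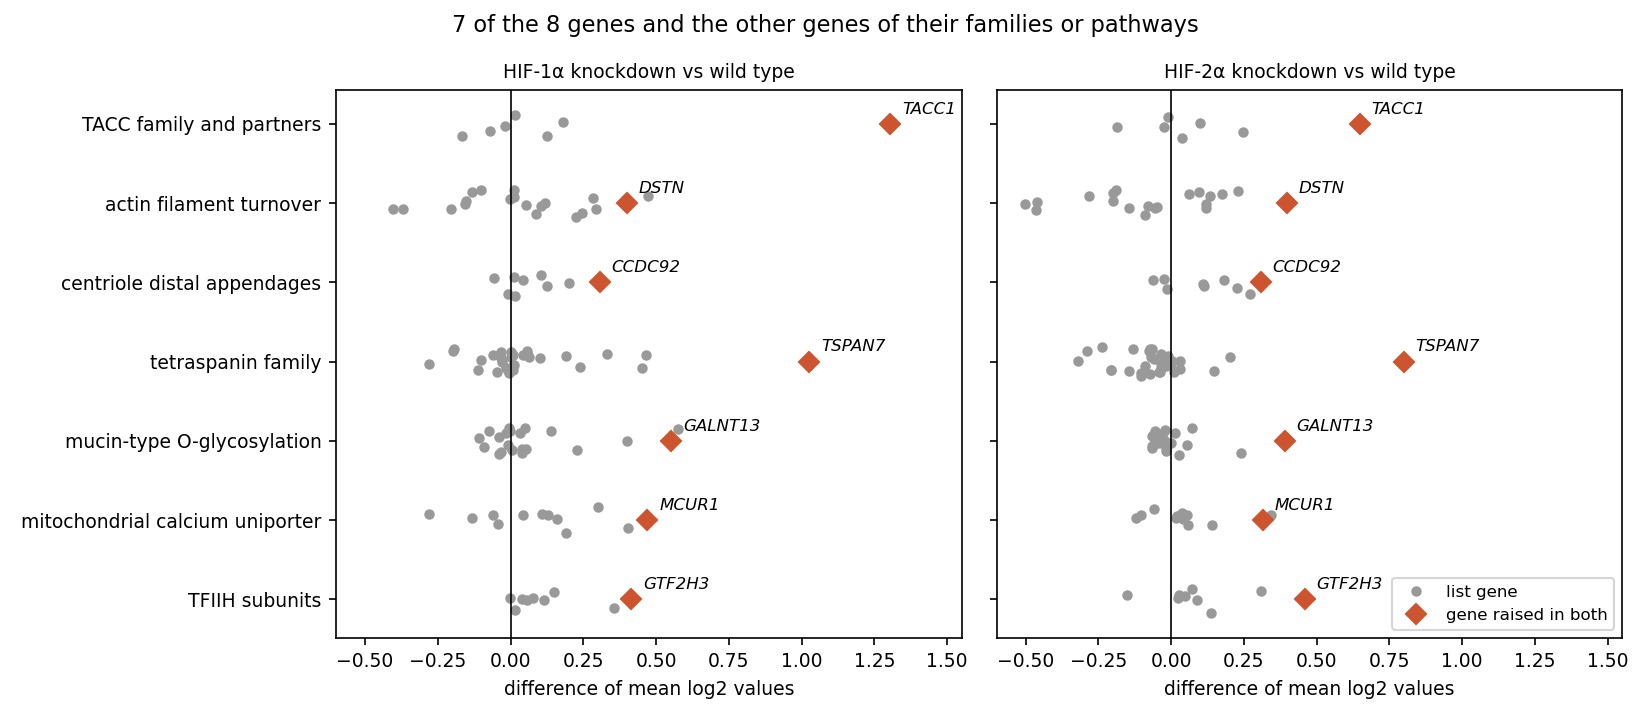
Differences of mean log2 values from wild type (horizontal axis) for 7 of the 8 genes (diamonds; no list is shown for RHOBTB1) and for the other measured genes of the family or pathway list set beside each (grey points; vertical scatter within a row has no meaning). Most grey points lie around 0, and TACC1 (1.30 and 0.65) and TSPAN7 (1.03 and 0.80) lie furthest from the other genes of their lists.

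Neighbouring genes on the chromosomes were examined next, with gene order taken from RefSeq (GRCh38.p14). Of the 45 measured genes that lie among the 3 nearest on either side of the 8 genes, 1 was called in each comparison with wild type. FMNL2, beside GALNT13, was higher in HIF-1α knockdown (0.32), and ARID5B, near RHOBTB1, lower in HIF-2α knockdown (-0.60). Between the knockdowns 2 were called, again FMNL2 and ARID5B, both lower in HIF-2α knockdown (-0.27 and -0.63). Over all genes 0.962% and 0.788% were called against wild type and 2.77% between the knockdowns. The median over the neighbours was -0.0018 in HIF-1α and -0.0083 in HIF-2α knockdown, beside 0.0049 and -0.011 over all genes. GTF2H3 and CCDC92 lie close together on chromosome 12, and 3 of the genes between them were measured. TCTN2 differed by 0.18 and 0.29 in the knockdowns, ATP6V0A2 by 0.24 and 0.05 and DNAH10 by -0.06 and -0.05, none of them called.

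Genes with the most similar profile were found by the root mean square difference over the 12 arrays, after each gene's own mean was subtracted. DSTN and GTF2H3 were the closest pair among the 8, at 0.0748 log2 units, followed by GALNT13 and MCUR1 at 0.0893. For DSTN the nearest genes of all were SVIP (0.0604) and NEMP1 (0.067). LIN28B (0.0787) and ALG13 (0.0877) were nearest to GALNT13, and ALG13 (0.063) and SLC7A6OS (0.0731) to MCUR1. The nearest to GTF2H3 besides DSTN was TMEM144 (0.0774), the nearest to CCDC92 were SLC6A11 (0.0644) and DTX3L (0.0693), and the nearest to RHOBTB1 were FBXL21P (0.0922) and RIDA (0.104). The nearest genes lay further off for TSPAN7, SULT1C2 (0.221) and RCN2 (0.241), and for TACC1, RAB31 (0.28) and SH3BGRL (0.297). The measure grows with a gene's own spread about its mean. That spread was 0.486 for TSPAN7 and 0.555 for TACC1, against 0.163 to 0.293 for the others of the 8. RAB31 and SH3BGRL differed from wild type by 0.72 and 0.80 in HIF-1α knockdown and by 0.20 and 0.23 in HIF-2α knockdown, below TACC1 (1.30 and 0.65) in both. The nearness of 2 genes is a description of these arrays and was not tested.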

How the data were processed

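The authors deposited log2 values per probe set for 12 arrays, 4 per group; base 2 is a reading of the values' range, as no label states it. RNA was amplified, labelled with biotin and stained with an Affymetrix kit, per the labels' protocols. How background, summarization and normalization were handled is not given in the sources used here. Of 32321 probe sets, the 19158 with exactly 1 gene symbol in the platform annotation were used, with symbols updated by Entrez identifier for 19128 of them, and the brightest over the 12 arrays stood for a gene, which left 18404 genes. Dim genes were kept.

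Differences were fitted with limma 3.58.1 in R 4.3.3 (lmFit, each group with its own mean and a spread shared by the 3 groups, then eBayes). P-values were adjusted by Benjamini-Hochberg across 18404 genes, and a gene is called below 0.05. Two-sided exact permutation tests compared 4 with 4 arrays, and 0.0286 is the smallest p they can give. Intervals are at 95%. The number of arrays limits the precision, and p-values reflect only how these arrays vary. Values were also simulated with the spread of each of the 18404 genes, drawn independently. There the comparison of the knockdowns recovered 58% of the genes set to a 1.25-fold change, 88% at 1.5-fold, 100% at 2-fold and 98% at 4-fold, with 10 unchanged genes called among 18404. The simulation held no differences between whole arrays such as those seen here, so recovery on the real arrays may be lower and false calls more.

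The 8 genes, the family and marker lists and the settings were chosen with earlier results of these data known. The genes named are the 8, HIF1A and EPAS1, genes of the reported lists called in any comparison, the paralogues closest by name, for each of the 8 the 2 genes with the most similar profile, and the first 3 others called higher in both knockdowns; other genes were named after their values were seen. The family list set beside RHOBTB1 is not reported here, and the totals over lists leave it out. The lists of endothelial, leukocyte, neuronal and fibroblast and stellate markers served as checks for other cells. Other scalings of the arrays, a filter on dim genes, the mean of all probe sets, a variance trend, array weights, fits of only the 2 groups compared, a replicate block, and fits without the arrays with a raised floor or without each array in turn were run as alternatives.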

Additional observations from a re-analysis of the deposited data

Results flagged for a closer look

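TACC1 differed between the knockdowns, by -0.66 on the log2 scale in HIF-2α against HIF-1α knockdown (limma adjusted p = 0.00639), so its rise over wild type was larger in HIF-1α knockdown. RHOBTB1 in HIF-2α knockdown had its highest array, replicate 2 at 10.68, far from the other 3, which lay between 10.31 and 10.34. MCUR1 in wild type had its lowest array, replicate 4 at 9.07, far from the other 3, which lay between 9.17 and 9.18. These were the 2 sets of arrays with such a distant value among 30 examined, and chance alone gives about 1 in 20.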

How the results depend on the processing

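Each of the 8 genes stayed above wild type in both knockdowns in every one of the 24 settings that included it; GALNT13 was not in the fit of brighter genes. The lower level of TACC1 in HIF-2α than in HIF-1α knockdown was called in all 24. The calls between the knockdowns among the 8 genes were 2 after quantile and cyclic loess normalization, where RHOBTB1 was added, and 3 with array weights, where GALNT13 was added too, and 1 each time an array was left out. The near-zero difference of DSTN between the knockdowns turned from -0.0028 to 0.0047 (quantile), 0.018 (median centring), 0.049 (common interquartile range), 0.016 (cyclic loess) and 0.060 (without the raised-floor arrays), and that of CCDC92 to -0.024 (array weights) and -0.0011 (without the raised-floor arrays). With single arrays left out these 2 differences ran from -0.074 to 0.060 and from -0.046 to 0.032. The HIF1A call was lost without the raised-floor arrays (-1.24, limma adjusted p = 0.103), a fit that kept only replicates 3 and 4 of wild type. The cause of these shifts was not tested.

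Counts moved more. Genes called higher in both knockdowns, 11 on the deposited values, were 3 after median centring and with a common interquartile range, 6 among brighter genes, 19 with a variance trend, 7 with only the 2 groups compared and 1 without the raised-floor arrays. With an array left out they ran from 1 to 40, and apart from HIF-2α knockdown replicates 3 and 4 every array moved them by more than 1.5 times. Genes called in HIF-1α knockdown against wild type, 177, were 85 after median centring, 95 with a common interquartile range, 288 with a variance trend, 605 with array weights, 396 with 2 groups and 22 without the raised-floor arrays, and from 50 to 483 with an array left out. In HIF-2α knockdown 145 became 404 (quantile), 72 (median centring), 349 (cyclic loess), 285 (variance trend), 64 (2 groups) and 37 (without the raised-floor arrays), and from 61 to 219. Between the knockdowns 509 became 888 (quantile), 337 (median centring), 838 (cyclic loess), 980 (array weights) and 259 (without the raised-floor arrays), and from 211 to 618; leaving out HIF-1α knockdown replicate 2, 3 or 4 or HIF-2α knockdown replicate 4 gave 279, 211, 313 and 274. The share of called genes that were higher in HIF-1α knockdown was 84.7% as deposited, 55.1% after quantile, 50.5% with a common interquartile range and 63.5% after cyclic loess; in HIF-2α knockdown 60.7% became 34.9%, 27.4% and 41.5%, and 47.2% after median centring.

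With the replicate number as a block, 562 genes were called between the knockdowns and 16 higher in both, 6 of the 8 among them. The numbers were not treated as a pairing: of 12 same-numbered pairs 5 correlated above 0.1 in their deviations from the group means (from -0.171 to 0.637), and an array's best match in another group had its own number in 5 of 24 checks.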
